A study of Ovis aries with 2 samples.

Results

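FOXP3 and the 5 Ikaros genes IKZF1, IKZF2, IKZF3, IKZF4 and IKZF5 were followed through the blood mononuclear cells of sheep. They were chosen by name, and all 6 were found among the 26761 gene names of the count files. Single-cell 3′ RNA sequencing was run on fresh, uncultured peripheral blood mononuclear cells (PBMCs) of Ovis aries. One library came from untreated sheep and the other from sheep given A.G.-ES, embedded before the blood was drawn at the ST36 acupoint of both sides, and the labels do not spell out A.G.-ES. With 1 library in each group there was no replicate, so no difference between the groups was tested, and all intervals below cover counting error only. The labels give no breed, age, sex, number of animals or time between embedding and bleeding.

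FOXP3 is the transcription factor that defines regulatory T cells, the CD4 T cells that restrain other immune cells, and loss of its function causes autoimmunity. The Ikaros proteins are zinc-finger transcription factors of lymphocytes that bind DNA as dimers with one another and recruit chromatin-remodelling corepressors. IKZF1 (Ikaros) is needed for lymphocyte development, IKZF2 (Helios) marks many regulatory T cells, and IKZF3 (Aiolos) is best known in B cells. IKZF4 (Eos) is a partner of FOXP3 in gene silencing, and IKZF5 (Pegasus) is the most divergent member of the family.

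The untreated library held 8246 barcodes and 55861418 unique molecular identifiers (UMIs, 1 per captured transcript), and the A.G.-ES library 9638 barcodes and 44485442 UMIs. After quality filters and doublet removal 7565 and 8737 cells were left, with medians of 5127 and 4103 UMIs. Barcodes were gated on marker UMIs, which gave 3480 and 1916 B cells, 350 and 1344 CD4 T cells and 202 and 600 CD8B T cells (untreated first, here and below). The T cells gated on SOX13 and RHEX numbered 1337 and 675, and the monocytes 175 and 262. A gate meant for NK cells (an NCR1 UMI with few CD3 UMIs) took 44 and 95 barcodes, but its label was not borne out, since 38 and 84 of them held a UMI of a T-cell check gene and BCL11B stood at 368 and 587 CPM (UMIs per 1000000 UMIs of the gate). It is called the NCR1-positive, CD3-low gate here. The CD4 T gate carried its check genes (summed 542 and 465 CPM, against 2.61 and 4.17 CPM in the B gate), and the B, T and monocyte gates likewise carried theirs.

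The libraries also differed in ways other than treatment. UMIs of Y-linked genes came to 40441 and 756, so the animals behind the libraries were not alike, and animal and treatment cannot be told apart. The libraries shared 61 cell barcodes. The summed level of 6 cycling genes was 384 and 94.6 CPM in the CD4 T gate, 1326 and 210 CPM in the CD8B T gate and 294 and 66.2 CPM in the B gate. Values without cells holding a UMI of these genes, a choice made after seeing the data, are given beside the results below.

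Among the 6 gates, FOXP3 was at its highest level in CD4 T cells in both libraries. Its level there, was 22.5 CPM in the untreated library (44 UMIs, 95% exact Poisson interval 16.4 to 30.2) and 8.88 CPM in the A.G.-ES library (58 UMIs, 6.74 to 11.5). All other gates lay at or below 1.30 CPM. The SOX13/RHEX T gate had 1.25 and 1.30 CPM, the CD8B T gate 1.27 and 0.714 CPM, and the B gate 0.425 and 0.887 CPM. Neighbours in this order overlapped in their range over the libraries, so no full order of these 3 gates can be given. The SOX13/RHEX T gate lay above the B gate in both libraries, with Poisson intervals that overlap in each. No FOXP3 UMI fell in monocytes, where a count of 0 (floor of 3 UMIs per library) allows up to 3.59 and 1.72 CPM, or in the NCR1-positive, CD3-low gate, whose small totals allow up to 21.2 and 13.6 CPM.

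The A.G.-ES CD4 T cells had the lower FOXP3 level, with a ratio to untreated of 0.394 (95% exact interval 0.262 to 0.597). The ratio was 0.517 (0.306 to 0.899) without cells holding a cycling UMI. Per cell, a FOXP3 UMI was seen in 30 of 350 untreated CD4 T cells (8.57%, 95% exact Clopper-Pearson interval 5.86 to 12) and in 48 of 1344 A.G.-ES cells (3.57%, 2.64 to 4.71). The median depth of these cells was 5230.5 and 4660.5 UMIs. After every cell was thinned to 1500 UMIs, which left out 2 and 15 shallower cells, the shares were 3.74% (13 of 348, 2.00 to 6.30) and 1.13% (15 of 1329, 0.633 to 1.85). The B gate, which should lack FOXP3, gave 0.0297% and 0.160% after the same thinning, and 0.374% and 0.522% at its full median depth of 8833 and 5268 UMIs. Both CD4 T shares stood above that background.

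**Figure D1:**
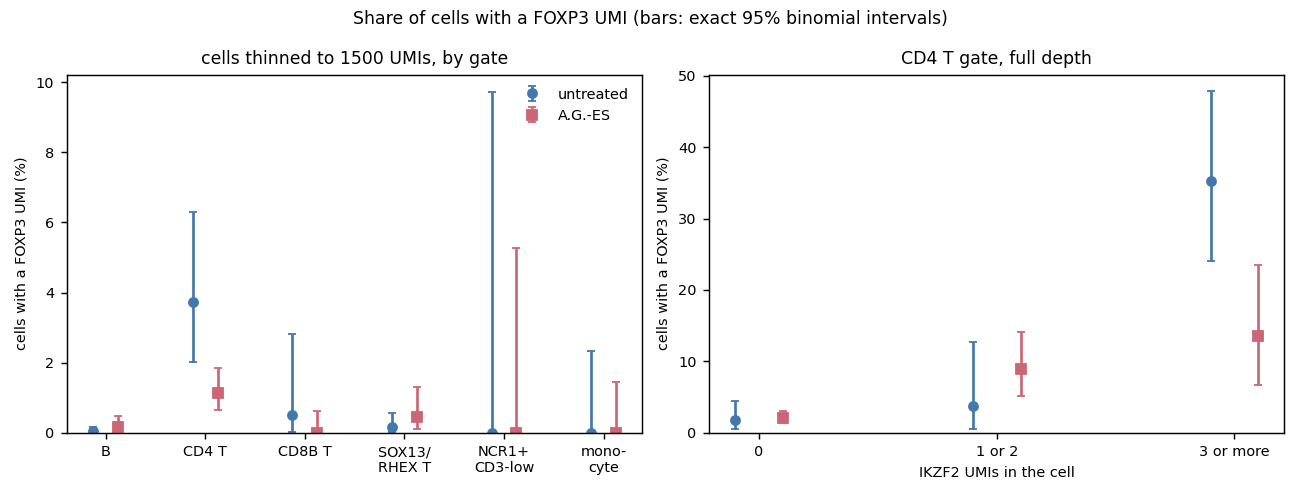
Share of cells with a FOXP3 UMI in percent, by library. Left, cells thinned to 1500 UMIs in the 6 gates, where the CD4 T gate stands at 3.74% and 1.13%. Right, CD4 T cells at full depth grouped by their IKZF2 UMIs, where the cells with 3 or more stand at 35.3% and 13.5%. Bars are exact 95% binomial intervals.

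Over all kept cells the order was the opposite: FOXP3 stood at 2.08 CPM in the untreated and 3.43 CPM in the A.G.-ES library (ratio 1.65, 1.27 to 2.15). The CD4 T gate made up 4.63% of untreated and 15.4% of A.G.-ES cells, and it held 41.9% and 43.0% of each library's FOXP3 UMIs. A further 36.2% and 45.2% lay outside the 6 gates, of which T-lineage barcodes that met none of the T gates held 25.7% and 35.6% (27 and 48 UMIs). In them FOXP3 was at 9.21 and 5.46 CPM, a ratio of 0.593 (0.363 to 0.988), which is the same direction as in the CD4 T gate. In the RefSeq gene table FOXP3 overlaps PPP1R3F and CCDC22, and whether the counting used strand is not given in the sources used here. In the CD4 T gate CCDC22 was at 6.66 and 5.36 CPM and PPP1R3F at 2.05 and 2.45 CPM, and in the B gate at 5.77 and 5.14 CPM and at 1.55 and 2.48 CPM. Both were thus at similar levels in these gates, unlike FOXP3.

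The Ikaros genes each had a distribution of their own over the gates. IKZF1 was present in every gate and was highest in monocytes, at 791 CPM (732 to 854) and 526 CPM (493 to 561). The SOX13/RHEX T gate followed with 514 and 420 CPM and overlapped in range with the CD4 T gate, at 436 and 373 CPM. The NCR1-positive, CD3-low gate (276 and 298 CPM), the CD8B T gate (284 and 245 CPM) and the B gate (277 and 234 CPM) formed the lower end and could not be ordered among themselves.

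IKZF2 was higher in the CD4 T and CD8B T gates than in the SOX13/RHEX T gate. It was highest in the NCR1-positive, CD3-low gate, at 311 CPM (226 to 418) and 334 CPM (262 to 420), and next in CD4 T cells, at 237 CPM (215 to 259) and 90.3 CPM (83.2 to 97.9). CD8B T cells had 119 and 66.4 CPM, a range that overlapped with that of CD4 T cells. The SOX13/RHEX T cells had 10.9 and 18.2 CPM, in the range of monocytes (13.2 and 27.5 CPM) and B cells (15.5 and 11.9 CPM). An IKZF2 UMI was found in 34.9% and 18.9% of CD4 T cells but in 3.81% and 6.07% of SOX13/RHEX T cells. In the untreated CD8B T gate a single cell held 33 of the 187 IKZF2 UMIs. IKZF2 overlaps the long noncoding RNA LOC121818520 in the RefSeq table, which had 0 UMIs in every gate of both libraries, and a tRNA gene.

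IKZF3 was high in B cells and low in monocytes. Untreated B cells had 404 CPM (397 to 410) and A.G.-ES B cells 182 CPM (174 to 190), while the NCR1-positive, CD3-low gate had 276 and 303 CPM and the CD8B T gate 237 and 152 CPM. These 3 gates overlapped in range. CD4 T cells followed with 81.9 and 54.3 CPM, SOX13/RHEX T cells with 23.4 and 24.3 CPM, and monocytes with 5.98 and 4.01 CPM (5 and 7 UMIs). The B gate held 90.3% of all IKZF3 UMIs of the untreated library and 46.4% of those of the A.G.-ES library.

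IKZF4 was sparse, with 148 and 101 UMIs in all kept cells. Untreated CD4 T cells had its highest level, 9.73 CPM (19 UMIs, 5.86 to 15.2), against 3.52 CPM (23 UMIs, 2.23 to 5.28) in A.G.-ES CD4 T cells. The SOX13/RHEX T gate had 1.79 and 5.19 CPM, the CD8B T gate 5.08 and 1.79 CPM, the B gate 2.28 and 1.60 CPM and monocytes 1.2 and 1.15 CPM (1 and 2 UMIs). The ranges of the 3 T gates overlapped, as did those of the CD8B T and B gates, while the range of B cells lay above that of monocytes, which rests on 3 UMIs in all. The NCR1-positive, CD3-low gate had 0 and 1 IKZF4 UMIs and cannot be placed. IKZF5 was found in every gate. It ranged from 52.2 and 46.7 CPM in CD4 T cells to 19.1 and 14.9 CPM in monocytes, with CD8B T (33.6 and 40.4 CPM), SOX13/RHEX T (35.0 and 38.6 CPM) and B cells (29.0 and 33.4 CPM) between them. In the NCR1-positive, CD3-low gate it rests on 4 and 11 UMIs.

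**Figure D2:**
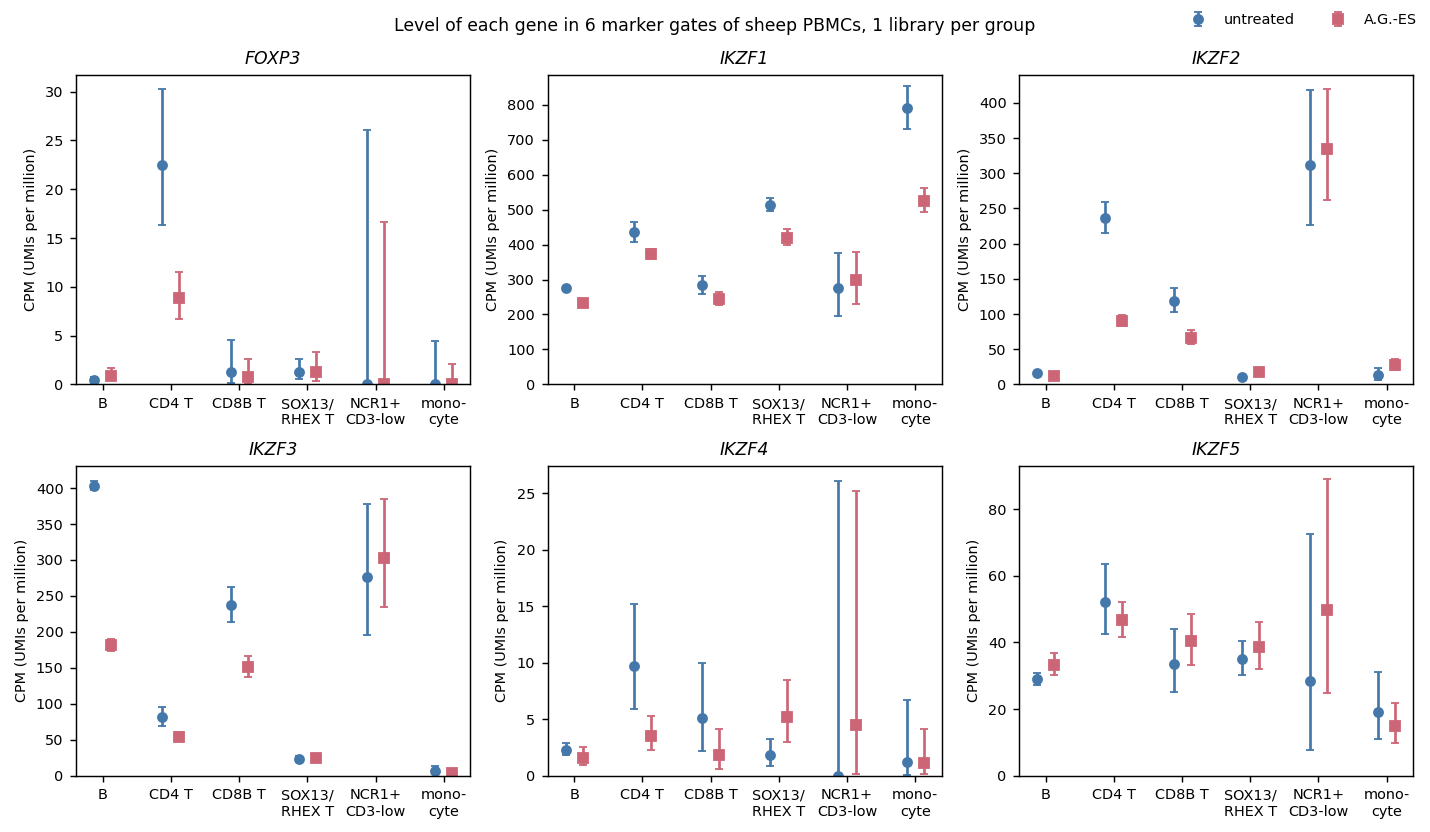
Level of each gene in CPM in the 6 gates, 1 panel per gene with its own axis from 0, and 1 point per library with its exact 95% Poisson interval. FOXP3 stands apart in the CD4 T gate, IKZF1 is highest in monocytes, and the libraries lie apart for FOXP3 and IKZF2 in CD4 T cells and for IKZF3 in B cells.

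Between the libraries, several members lay apart in CD4 T cells. FOXP3, IKZF2, IKZF3 and IKZF4 were below their untreated level by 1.5-fold or more in A.G.-ES cells, 4 of the 6 members, and none was higher. Of the 9982 genes with at least 20 UMIs in that gate, 18.3% were lower and 10.2% higher by this measure, with a median log2 ratio of -0.16. The IKZF2 ratio was 0.382 (0.338 to 0.432), and without cells holding a cycling UMI it was 0.365 (0.313 to 0.427). IKZF4 had a ratio of 0.362 (0.189 to 0.703), or 0.474 (0.202 to 1.2) without those cells, which rests on 9 and 18 UMIs. IKZF3 lay at the edge of the fold with a ratio of 0.663 (0.549 to 0.805), and without those cells it was at 0.916 (0.696 to 1.22). IKZF1 (0.855) and IKZF5 (0.894) lay near the median of all genes.

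In B cells IKZF3 was the 1 member counted as lower, at 0.450 of its untreated level (0.430 to 0.472) where 16.9% of 12555 genes were at least 1.5-fold lower. IKZF3 was lower in every subset of B cells looked at, subsets that were chosen after seeing the data. The ratio was 0.443 in B cells with a UMI of JCHAIN, the joining chain of secreted antibodies, and 0.536 in those without. It was 0.461 in B cells with a UMI of FCER2 (CD23) and 0.454 in those without, and 0.447 without cells holding a cycling UMI. FOXP3 was the 1 member counted as higher in B cells, against 16.4% of all genes, but its 14 and 10 UMIs leave a ratio of 2.09 with an interval from 0.829 to 5.05. IKZF1 (0.844), IKZF2 (0.766), IKZF4 (0.701) and IKZF5 (1.15) stayed within the fold over the whole B gate. In B cells without a JCHAIN UMI, however, IKZF2 was at 0.542 (0.410 to 0.712) and IKZF4 at 0.304 (0.111 to 0.728, from 24 and 7 UMIs). Both were past the fold there, as was IKZF3. The share of all genes past the fold in this subset is not given here, so no background stands beside these values.

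CD8B T cells had IKZF2 (ratio 0.560, 0.455 to 0.690) and IKZF3 (0.641, 0.557 to 0.739) past the fold, 2 of 4 members with enough UMIs, in a gate where 32.7% of 8955 genes were lower, 10.4% higher and the median log2 ratio was -0.32. With stricter gates the log2 ratio of IKZF2 in CD8B T cells was 0.0502, so its direction turned there. Without cells holding a cycling UMI the IKZF2 ratio was 0.760 (0.532 to 1.11). After the thinning used above, 8.16% of untreated (16 of 196) and 7.58% of A.G.-ES CD8B T cells (45 of 594) had an IKZF2 UMI. The intervals of these shares overlap (4.74 to 12.9 and 5.58 to 10.0), so the shares do not show the lower CPM. IKZF5 had a ratio of 1.2 (0.859 to 1.70), and of 0.773 (0.486 to 1.27) without cells holding a cycling UMI.

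The SOX13/RHEX T cells went the other way for IKZF2 and IKZF4. IKZF2 was 1.67 times its untreated level (1.14 to 2.44) and IKZF4 2.90 times (1.24 to 7.16), which makes 2 of 5 members higher, against 9.75% of 9904 genes (median log2 ratio -0.12). IKZF4 there rests on 10 and 16 UMIs, and without cells holding a cycling UMI its ratio was 1.94 (0.727 to 5.21). IKZF3 (1.04) and IKZF5 (1.10) in this gate were close to 1, and IKZF1 was at 0.817. Several marker genes of this gate also lay apart between the libraries. IL1R1 was at 3.22 and 51.6 CPM, CCL5 at 10.4 and 177 CPM and THEMIS at 2.50 and 9.09 CPM. SOX4 was at 374 and 151 CPM and BLK at 419 and 280 CPM, while BCL11B was at 306 and 307 CPM. The part of the gate's make-up in the IKZF2 and IKZF4 ratios was not tested.

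Monocytes had IKZF1 at 0.665 of its untreated level (0.601 to 0.736), at the edge of the fold, where 15.4% of 7380 genes were lower. IKZF2 was 2.09 times its untreated level in monocytes (1.07 to 4.46, from 11 and 48 UMIs), where 15.1% of genes were higher. Thinned to 1500 UMIs, the share of monocytes with an IKZF2 UMI was 3.18% and 3.14%, so the shares do not show the order of the CPM. In the NCR1-positive, CD3-low gate IKZF1 (1.08), IKZF2 (1.07) and IKZF3 (1.10) all had intervals that spanned 1. None of these 3 members was past the fold there, where 37.2% of 3077 genes were.

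**Figure D3:**
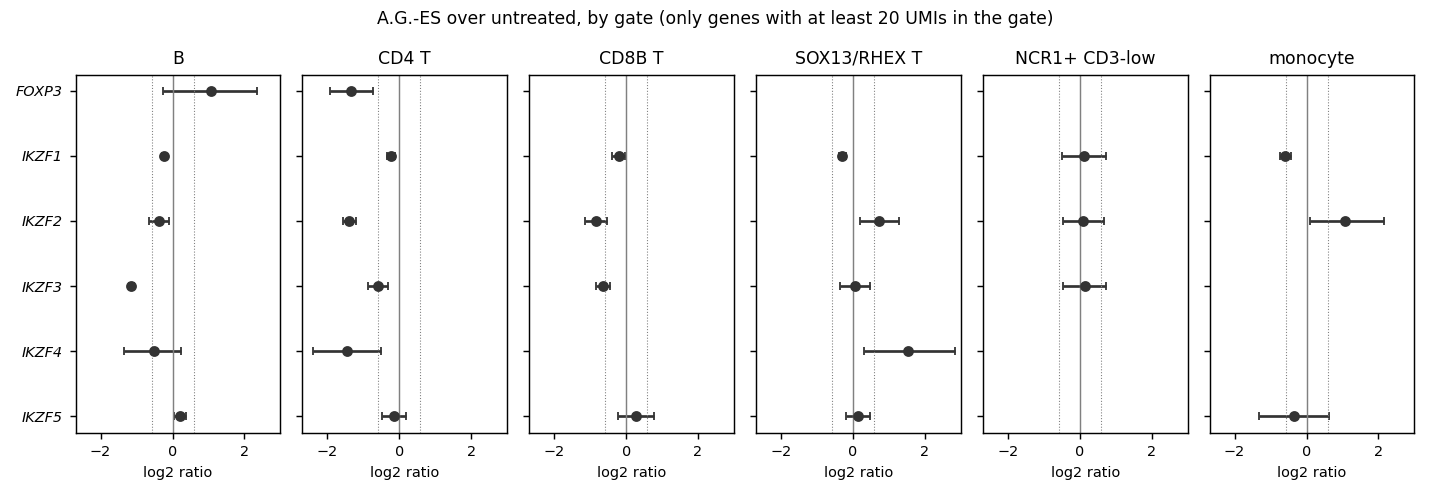
Ratio of the A.G.-ES to the untreated level on a log2 scale for each member in each gate, with exact 95% intervals (counting error only). Solid line, equal levels. Dotted lines, 1.5-fold either way. Members with under 20 UMIs in a gate are left out. IKZF2 lies left of the lines in CD4 T and CD8B T cells and right of them in SOX13/RHEX T cells and monocytes.

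Within each library, CD4 T cells with a FOXP3 UMI were set against those with none. There were 30 such cells against 320 in the untreated and 48 against 1296 in the A.G.-ES library. Most of them rest on a single FOXP3 UMI (21 and 40 cells), and cells that use the gene can have been counted as zero at this depth. Median depths were alike within a library, at 4974 and 5297 UMIs in the untreated and 4266 and 4691.5 UMIs in the A.G.-ES cells. FOXP3 UMIs were left out of the totals.

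IKZF2 was higher in FOXP3-positive than in FOXP3-zero cells in both libraries. Untreated FOXP3-positive cells had 935 CPM of IKZF2 and FOXP3-zero cells 177 CPM, a ratio of 5.29 (4.31 to 6.46). In the A.G.-ES library the levels were 297 and 82.7 CPM, a ratio of 3.59 (2.75 to 4.62). An IKZF2 UMI was present in 26 of 30 untreated FOXP3-positive cells (86.7%, 69.3 to 96.2) and in 26 of 48 A.G.-ES ones (54.2%, 39.2 to 68.6), against 30% and 17.6% of FOXP3-zero cells. Thinned to 1500 UMIs these shares were 80% and 29.8% of positive and 15.4% and 9.28% of zero cells. The median FOXP3-positive cell held 4 IKZF2 UMIs in the untreated library and 1 in the A.G.-ES library.

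Read the other way round, the share of CD4 T cells with a FOXP3 UMI was higher among cells with 3 or more IKZF2 UMIs than among those with none. With no IKZF2 UMI, 1.75% of 228 untreated and 2.02% of 1090 A.G.-ES cells had a FOXP3 UMI. With 1 or 2 IKZF2 UMIs the shares were 3.70% (0.452 to 12.7) and 8.89% (5.17 to 14.0). With 3 or more they were 35.3% (24 of 68 cells, 24.1 to 47.8) and 13.5% (10 of 74 cells, 6.68 to 23.5). The A.G.-ES intervals of the classes with 1 or 2 and with 3 or more overlap. Of the FOXP3-positive cells, 24 of 30 untreated but 10 of 48 A.G.-ES cells had 3 or more IKZF2 UMIs, and 4 and 22 had none. The cells with 3 or more were somewhat deeper, with medians of 6294.5 and 5513 UMIs against 5216.5 and 4620.5 UMIs in those with none. The ungated T barcodes gave 17.4% and 7.14% in the class of 3 or more, and 1.05% and 1.18% in that of none.

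The other members differed less between these cells or rest on few UMIs, except IKZF3 in the A.G.-ES library. IKZF1 was lower in FOXP3-positive cells, at 279 against 449 CPM (ratio 0.622, 0.446 to 0.845) and at 271 against 376 CPM (0.720, 0.551 to 0.924). IKZF3 was at 97.4 against 80.6 CPM in the untreated library (1.21, 0.659 to 2.06) and at 172 against 50.0 CPM in the A.G.-ES library (3.44, 2.41 to 4.79). The untreated IKZF3 log2 ratio was 0.27, and it was 1.15 without cells holding a cycling UMI and -0.27 with stricter gates. IKZF4 was at 26.0 against 8.34 CPM (4 UMIs in positive cells) and at 38.7 against 2.22 CPM (9 UMIs in 7 of 48 cells, ratio 17.4, 6.65 to 43.2). IKZF5 was lower at 26.0 against 54.5 CPM and 30.1 against 47.3 CPM, from 4 and 7 UMIs, and both its intervals span 1.

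Of the 4 Ikaros genes with at least 5 UMIs expected in FOXP3-positive cells, IKZF2 was at least 1.5-fold higher in both libraries and IKZF5 at least 1.5-fold lower in both. Of 4183 genes counted in both libraries, 2.68% were higher and 4.11% lower in both. In single libraries 11.8% and 12.5% were higher and 15.5% and 14.5% lower. The 6 cycling genes summed to 779 CPM in the untreated FOXP3-positive cells against 350 CPM in FOXP3-zero cells, and to 47.3 against 96.3 CPM in the A.G.-ES library. Their part in the values above was not tested beyond leaving those cells out, where the IKZF2 log2 ratio was 2.67 and 1.75 (2.40 and 1.84 with them). Check genes of B cells were at 84.4 against 76.1 CPM and 30.1 against 44.8 CPM, and those of monocytes at 104 against 93.4 CPM and 142 against 103 CPM. Those of CD8B T cells were at 45.5 against 21.7 CPM (7 UMIs in positive cells) and 17.2 against 51.3 CPM (4 UMIs), and those of platelets at 6.49 against 45.0 CPM (1 UMI) and 0 against 18.6 CPM. The part of these lists in the values above was not tested.

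Several genes known as the regulatory T-cell core were higher in FOXP3-positive cells, though many of the list were too sparse to count. Of 26 listed genes in the files, 10 untreated and 12 A.G.-ES ones had enough UMIs expected. At least 1.5-fold higher were 6 of 10 (1 lower) and 7 of 12 (0 lower), with median log2 ratios of 0.88 and 0.71 against 0.00 and 0.02 over all genes counted, and 5 of 10 were higher in both libraries. Of all genes counted, 11.8% and 12.5% were higher by library and 2.68% were higher in both. Without cells holding a cycling UMI the higher ones were 3 of 7 and 5 of 11, and the share of all genes is not given there. IL2RA, the high-affinity interleukin-2 receptor chain, was at 279 against 47.8 CPM (5.84, 3.95 to 8.52) and 314 against 58.3 CPM (5.39, 4.13 to 6.94). TNFRSF18 (GITR) had ratios of 5.18 and 5.78. The transcription factors BATF (3.41 and 4.52) and PRDM1 (2.20 and 2.44) and the interleukin-2 receptor chain IL2RB (3.15 and 1.65) completed the 5. The inhibitory receptor CTLA4 was at 6.15 and 4.78 and the chemokine receptor CCR8 at 8.99 and 4.17, with under 5 UMIs expected in 1 or both libraries. CCR4 was the 1 lower gene, at 1 UMI in untreated FOXP3-positive cells, and ICOS (1.44 and 1.37) and TNFRSF1B (1.12 and 1.08) stayed within the fold.

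Of genes known to be low in regulatory T cells, some were lower in FOXP3-positive cells. Of 8 counted, 0 were higher in either library and 3 were lower in both: IL7R, the interleukin-7 receptor (0.482 and 0.513), TCF7, a factor of resting T cells (0.131 and 0.456), and CD40LG, a helper ligand (0.408 and 0.340, from 3 UMIs each). Counted per library, 4 and 5 of the 8 were lower, against 15.5% and 14.5% of all genes (4.11% in both libraries), with median log2 ratios of -0.79 and -0.81. SATB1, a chromatin organizer, had ratios of 0.693 and 0.477. Of its UMIs in FOXP3-positive cells, 1 cell held 66 of 215 in the untreated and 1 cell 68 of 206 in the A.G.-ES library. Among 24 partners and upstream regulators of FOXP3, 2 were higher in both libraries, GATA3 (1.55 and 1.83) and FOXP1 (1.66 and 1.51), and 2 lower, RUNX1 (0.493 and 0.661) and the histone methyltransferase EZH2 (0.499 and 0.658). Of all genes counted in both libraries, 2.68% were higher and 4.11% lower in both. The corepressors that Ikaros proteins recruit (10 counted) and the cereblon ubiquitin ligase that degrades IKZF1 and IKZF3 when bound by thalidomide-like drugs (3 counted) had 0 genes past the fold in the same direction in both libraries. In the A.G.-ES library alone, 3 of 11 corepressors were higher and 1 lower, where 12.5% of all genes were higher and 14.5% lower. The higher ones were the histone deacetylases HDAC1 (1.62) and HDAC2 (1.53) and the NuRD subunit MTA2 (1.81). The lower one was the scaffold SIN3A (0.634), and all of these intervals span 1. The untreated values were 0.929, 1.15, 1.15 and 1.42 in that order. CHD4, the NuRD remodeller, had ratios of 0.988 and 1.26, and RBX1 of the ligase 0.791 and 0.981.

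**Figure D4:**
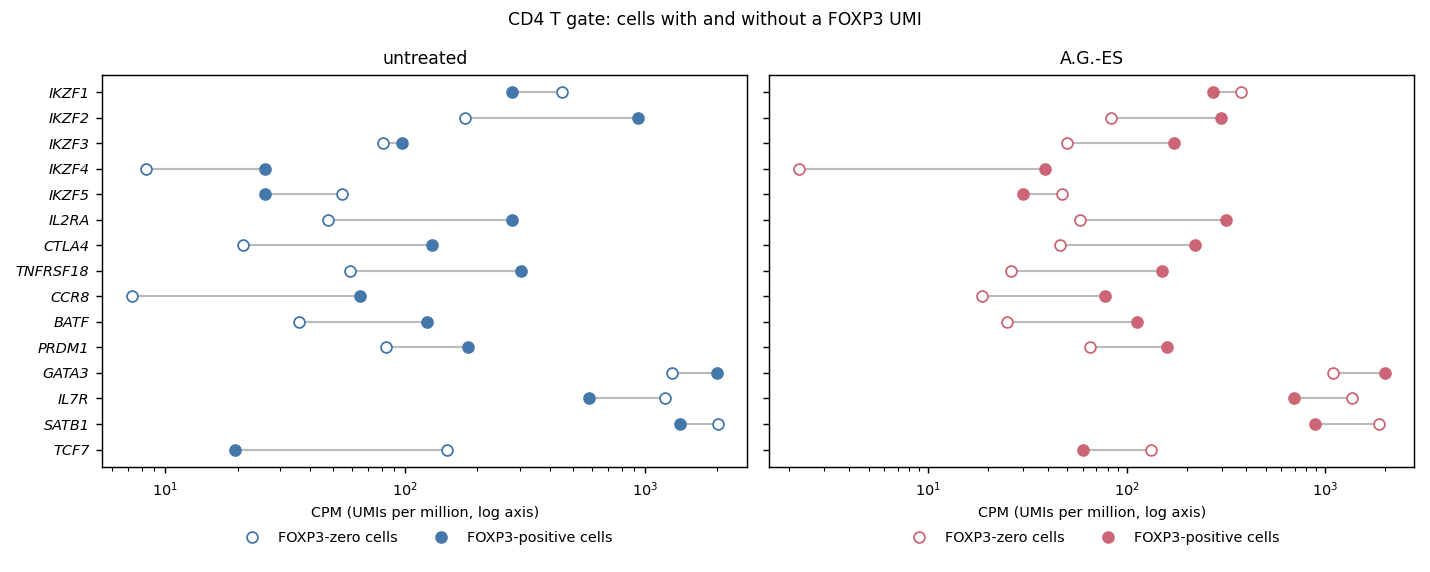
Levels in CPM on a log axis of the 5 Ikaros genes and 10 genes of the lists in CD4 T cells with a FOXP3 UMI (filled) and with none (open), untreated left and A.G.-ES right. IKZF2 stands at 935 against 177 CPM and 297 against 82.7 CPM, beside IL2RA at 279 against 47.8 CPM and 314 against 58.3 CPM. The IKZF4 points rest on 4 and 9 UMIs in FOXP3-positive cells.

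Ranked over all genes by the less extreme of the 2 libraries, the 10 gene symbols highest in FOXP3-positive cells were KIT, SRGAP3, IL2RA, TNFRSF18, CTLA4, SNX9, IL10RA, CCR8, PDE4D and TCF4, which puts 4 genes of the regulatory T-cell list among them. KIT, the stem cell factor receptor, led with 20 and 10 UMIs (130 against 8.34 CPM and 43.0 against 0.952 CPM), but 11 of the untreated UMIs came from 1 cell. SNX9, a membrane-trafficking protein, was at 240 against 52.2 CPM and 219 against 41.0 CPM, and it was seen in 15 of 30 and 27 of 48 positive cells. PDE4D, a cyclic AMP phosphodiesterase, was at 3156 against 611 CPM and 2154 against 528 CPM. IL10RA, the interleukin-10 receptor chain, had ratios of 4.09 and 4.21, and SRGAP3 of 5.45 and 6.45. TCF4 had 6.25 and 3.61, the latter from 4 UMIs with an interval that spans 1 (0.925 to 10.3). TCF4 was far higher in the B gate (561 and 537 CPM) than in the CD4 T gate (33.8 and 5.20 CPM). The part of B-cell RNA in its ratios was not tested. The 5 lowest were CDK14, RNF144A, ZBTB16, ZBTB20 and GAB2. CDK14 had 0 UMIs in untreated FOXP3-positive cells, at least 5.93-fold lower than in FOXP3-zero cells against a floor of 3 UMIs, and a ratio of 0.103 in the A.G.-ES library. ZBTB16 (PLZF) had a ratio of 0.158 in the untreated library and 0 UMIs in the A.G.-ES one, at least 5.22-fold lower. RNF144A was at 0.106 and 0.0903, ZBTB20 at 0.216 and 0.199, and GAB2 at 0.0659 and 0.236.

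Set against each other, the FOXP3-positive cells of the libraries differed in IKZF2. It was at 0.317 (0.235 to 0.426) of the untreated level in A.G.-ES FOXP3-positive cells, and at 0.468 (0.406 to 0.540) in FOXP3-zero cells, so the lower IKZF2 of the A.G.-ES CD4 T gate was seen in both. The FOXP3 level in CPM of the positive cells was at 0.873 (0.580 to 1.32), with means of 1.47 and 1.21 FOXP3 UMIs per positive cell, a value bounded below by the UMI that defines these cells. IKZF3 was 1.77 times the untreated level in positive cells (0.954 to 3.44) and 0.620 (0.508 to 0.761) in zero cells, and IKZF4 in zero cells was at 0.267 (0.119 to 0.592). Of the 4 members counted in positive cells 1 was higher and 1 lower, against 12.4% and 26.4% of 3194 genes (38.8% either way). The higher one was IKZF3, with an interval that spans 1, and the lower one IKZF2. FOXP3 is among the 4, though its level there is held up by the choice of cells. Of the 5 members counted in zero cells 3 were lower and 0 higher, against 18.3% and 10.5% of 9883 genes (28.8% either way).

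Over the whole CD4 T gate the companions of FOXP3 did not move as a block between the libraries. Of 18 regulatory T-cell core genes with enough UMIs, 4 were at least 1.5-fold higher in the A.G.-ES library and 3 lower, with a median log2 ratio of -0.03 against -0.16 over all genes, of which 10.2% were higher and 18.3% lower. The higher ones were CTLA4 (29.7 and 52.0 CPM, ratio 1.75), CCR8 (11.8 and 20.7 CPM, 1.76), CD27 (1.5) and the cytokine IL10 (0 and 20 UMIs, at least 1.99-fold higher against the floor of 3 UMIs). The lower ones were TNFRSF18 (78.3 and 30.5 CPM, 0.389), the cytokine TGFB1 (0.482) and BATF (0.648). IL2RA (66.0 and 67.4 CPM), ICOS (200 and 222 CPM), TIGIT (25.1 and 32.0 CPM), TNFRSF1B (509 and 526 CPM), IL2RB (50.7 and 47.9 CPM), CCR4 (40.4 and 32.9 CPM), PRDM1 (90.6 and 68.6 CPM) and TNFRSF4 (25.6 and 17.5 CPM) were within the fold. So were the sparser LAG3 (9 and 24 UMIs), IRF4 (14 and 43) and ITGAE (26 and 102). Of 28 partners and upstream regulators 4 were lower and 0 higher, SMAD3 (0.539), TET2 (0.545), EZH2 (0.609) and FOXO1 (0.626). Of 15 corepressors 1 was lower (MTA1, 0.574), of 6 cereblon ligase genes 1 (DDB1, 0.666), and of 9 genes low in regulatory T cells 1 (PDE3B, 0.489). These counts of lower genes stand against the 18.3% of all genes that were lower in the gate, and each is a smaller share than that.

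Genes whose level over the 12 points (6 gates in 2 libraries) was most like that of each member were ranked by the Pearson correlation of log2(CPM + 1) among 9212 genes. The points share libraries, depth and gate totals, so the values are descriptions only. The genes compared needed at least 200 UMIs over the gated cells, which FOXP3 and IKZF4 themselves did not reach. The IKZF4 points of the NCR1-positive, CD3-low gate rest on 0 and 1 UMIs. ATRN (0.947), IGSF1 (0.899) and IL17RB (0.894) ranked highest for FOXP3, and IL17RB was at 68.1 and 19.6 CPM in CD4 T cells. For IKZF1 they were MCU (0.955), SLC11A2 (0.911) and FAM114A1 (0.911), and for IKZF2 UBP1 (0.961), MICAL2 (0.948) and SELENOT (0.947). STK26 (0.977), DIPK1A (0.962) and ZBTB2 (0.962) were nearest to IKZF3. FXR1 (0.893), EMC3 (0.875) and DCAF15 (0.871) were nearest to IKZF4, and JAZF1 (0.963), KIF5B (0.956) and BCL2 (0.944) to IKZF5. Among the members themselves FOXP3 was most like IKZF4 (0.67), and IKZF1 and IKZF3 ran opposite (-0.89).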

How the data were processed

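The authors deposited raw UMI counts per gene and barcode for each library, made with the SeekOne DD 3′ kit per the labels' protocols. Aligner, counter, genome build, strand setting and cell caller: not given in the sources used here. Rows of one name were summed (26814 rows, 26761 names), and 0 columns of per-sample values were left aside. Cells needed 500 UMIs, 200 genes and at most 15% mitochondrial UMIs. The cells with the highest Scrublet score (scanpy 1.11.5) were removed at 0.8% per 1000 cells, 523 and 715 in all. Lineage gates needed 2 UMIs of CD3, B or monocyte genes and 80% of the UMIs of these lists. CD4 and CD8B needed 1 UMI without the other subset genes, and SOX13 plus RHEX 2.

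Counts were summed per gate and library and scaled to 1000000 (CPM). Ratios carry exact conditional binomial intervals at 95% and are called past the fold at 1.5 with at least 20 UMIs in both libraries together. The intervals were run on simulated Poisson counts, which hold counting error only. That run cannot show how the intervals hold where UMIs cluster in few cells. In the FOXP3 contrast at least 5 UMIs had to be expected in positive cells. No significance test was run. Named genes were the members, the 3 most alike in pattern to each, the 10 highest and 5 lowest in FOXP3-positive cells (at least 20 UMIs, pseudocount 0.5), and listed genes. The members and lists were chosen with earlier results of these data known. Alternatives changed doublets, gates, filters, cell weights, scaling (TMM of edgeR 4.0.16), thinning, fold and count minimum. Gene overlaps come from RefSeq (ARS-UI_Ramb_v3.0).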

Additional observations from a re-analysis of the deposited data

Results flagged for a closer look

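IKZF2 stood in opposite directions between the libraries in different gates. Its log2 ratio of A.G.-ES over untreated was -1.39 in CD4 T cells and -0.84 in CD8B T cells, but 0.74 in SOX13/RHEX T cells and 1.06 in monocytes, with intervals that do not span 0 in any of the 4. IKZF4 likewise was at -1.47 in CD4 T cells and 1.54 in SOX13/RHEX T cells. Whether the gates differ was not tested, since each group is 1 library. The CD8B T value of IKZF2 turned with stricter gates, and its CD8B T and monocyte values were not seen in the thinned shares of cells. In SOX13/RHEX T cells the thinned IKZF2 shares were 1.37% and 2.08%, with intervals that overlap. Several marker genes of that gate also lay apart between the libraries, as given above, and their part in these ratios was not tested. Without cells holding a cycling UMI, the interval of the IKZF2 ratio spanned 1 in CD8B T cells. It did not in CD4 T cells, SOX13/RHEX T cells or monocytes. The IKZF4 intervals then spanned 1 in both of its gates.

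FOXP3 UMIs were also found in T-lineage barcodes that no T gate took, 27 and 48 by library (untreated first), above the level in monocytes, where none was seen.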

How the results depend on the processing

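FOXP3 in CD4 T cells was lower in the A.G.-ES library under all 8 alternatives, with log2 ratios from -1.53 to -0.95, the latter without cells holding a cycling UMI. The difference in the thinned FOXP3 share was -2.61 points, and -5.00 without thinning. IKZF2 in CD4 T cells had a log2 ratio of -1.39, and -1.18 with TMM scaling. IKZF3 in B cells had -1.15, and -1.07 centred on the median of all genes. IKZF2 in CD8B T cells turned from -0.84 to 0.0502 with stricter gates.

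The counts that follow show only how the number of members past the fold moved with the settings. The share of all genes past the fold under each alternative is not given here. Members past the fold numbered 4 in CD4 T cells, and 3 under 8 alternatives. They numbered 2 in B cells, 3 with stricter gates or equal cell weights, and 1 without cycling cells or at a minimum of 100 UMIs. In CD8B T cells they numbered 2, but 0 with stricter gates, with equal cell weights or at a fold of 2, 1 without ribosomal, mitochondrial and haemoglobin genes, with TMM, centred or without cycling cells, and 4 with no minimum. In SOX13/RHEX T cells they numbered 2, and 1 at 100 UMIs or a fold of 2. In the NCR1-positive, CD3-low gate they numbered 0, and 1 with stricter gates or no minimum. In monocytes they numbered 2, and 1 with stricter gates, 1500 UMIs and 10% mitochondrial, without ribosomal, mitochondrial and haemoglobin genes, with TMM, centred, at 100 UMIs or a fold of 2.

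Regulatory T-cell core genes higher in untreated FOXP3-positive cells numbered 6 of 10. They numbered 2 of 4 counted with stricter gates, 3 of 7 without cycling cells, 1 of 3 when positive cells were called after thinning and 5 of 10 without ribosomal, mitochondrial and haemoglobin genes. In the A.G.-ES library they numbered 7 of 12, but 5 of 7 with stricter gates, 5 of 11 without cycling cells and 2 of 3 after thinning. The share of all genes that were higher under these alternatives is not given here. The IKZF2 ratio of FOXP3-positive over FOXP3-zero cells kept its direction under every alternative run, from 2.31 to 2.67 and from 1.75 to 2.11 on the log2 scale. Of 216 alternative values of the members' log2 ratios between the libraries 190 stayed within the interval of the main value, 25 moved past it and 1 turned. The cause of these shifts was not tested.

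FOXP3, IKZF4 and all values of the NCR1-positive, CD3-low gate are limited by their few UMIs. No paired analysis was possible because each group has 1 library.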
